A study of Mus musculus with 17 samples.

Results

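The second leukaemia model compared blasts of 3 leukaemic mice (leukemic_601, leukemic_606 and leukemic_921) with blasts of 4 preleukaemic mice (preleukemic_633, preleukemic_663, preleukemic_812 and preleukemic_837), all TgSpi1FA+/+. These 7 libraries are the columns of 1 deposited count table and 7 of the 17 samples of the series. Every mouse had the DBA2J strain background, carried the Spi1 transgene, which encodes the ETS transcription factor SPI1 (PU.1), and kept wild-type Fanca (TgSpi1Fanca.wt in the labels). Blasts of both stages were erythroid blasts grown with erythropoietin (EPO) and diluted 2 days before polyA RNA was extracted, and 1 library was made per mouse from 300 ng of RNA. Leukaemic cells of this model arose in preleukaemic TgSpi1 mice that had received repeated blood transfusions, so that the leukaemic stage and the transfusion history cannot be told apart, and each library describes the blast population of 1 animal. The paper states that transfusion in this model selected EPO-independent cells that carried activating KIT mutations. The Kit sequence of these libraries was not examined here, so that stage cannot be told apart from such mutations either. The comparison asked which programmes separate leukaemic from preleukaemic blasts when FANCA is intact.

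Red cell production starts from progenitors that depend on EPO and on KIT, the receptor for stem cell factor, and proceeds under GATA1, KLF1 and TAL1, which switch on the globins, the haem enzymes and the membrane skeleton. SPI1 antagonizes GATA1, and its unrestrained expression holds erythroid progenitors as immature, dividing blasts. Erythroid, megakaryocytic and mast cell fates share GATA factors, and the mast cell fate also relies on KIT.

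At an unadjusted p under 0.05, leukaemic blasts had more mRNA of 4 of 13 mast cell genes, among them the IgE receptor subunit gene Ms4a2, the carboxypeptidase gene Cpa3 and the chymase gene Cma1, and less of 11 of 29 red cell membrane and blood group genes and 8 of 18 platelet genes. Transcripts of 9 of 30 EPO, KIT and JAK-STAT5 signalling genes, of 9 of 23 SWI/SNF chromatin remodellers and of the maintenance DNA methyltransferase Dnmt1 were lower as well, whereas 21 of 44 ribosomal protein and 14 of 41 DNA replication genes were higher. None of these differences passed the test at the level of single genes after correction for multiple testing. Of the higher mast cell genes, Cpa3, Cma1 and the basophil protease gene Mcpt8 passed the filter on low counts only through the leukaemic libraries. Of the lower platelet genes, Vwf, Thbs1 and Mef2c passed it only through the preleukaemic libraries. The direction of all these genes was thus set by that filter and adds no support to the mast cell and platelet counts. Of 12970 genes tested, edgeR's quasi-likelihood test with Benjamini-Hochberg adjustment called 0 genes (0%) at an adjusted p under 0.05 and at least 1.5-fold, and the smallest adjusted p was 0.162. At an unadjusted p under 0.05, 1114 genes were higher in leukaemic libraries (8.59%) and 1473 were lower (11.4%), 2587 in all (19.9%). Without mouse leukemic_606 the counts were 673 and 969, and once a trend with exon length, described below, was removed they were 1266 and 944. No overlap between groups was seen in 2606 genes (20.1%), of which 1252 were higher (9.65%) and 1354 lower (10.4%). In what follows, higher or lower in a count means this unadjusted p, which gives the share of all genes against which each gene list is read.

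DESeq2's Wald test, with the same thresholds, called 470 of 13619 genes (3.45%), 151 higher (1.11%) and 319 lower (2.34%). Among them, 437 were also tested by edgeR, all with an unadjusted edgeR p under 0.05, and groups were apart in 136 of the higher ones and in 265 of the 299 lower ones. The number of DESeq2 calls depended on single mice. It was 1618 without mouse preleukemic_812, 155 without leukemic_606, 167 without preleukemic_837, 202 without preleukemic_633, 265 without leukemic_601 and 288 without preleukemic_663, and 343 without leukemic_921.

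The libraries held 37726753 to 40514205 counts each, with 5.06% to 7.63% of them in the 10 most abundant genes and 0.70% to 2.36% on the mitochondrial genome. All 7 carried transcripts of the erythroid regulators Gata1, Klf1 and Tal1 and of Tfrc. Other erythroid markers, among them Alas2, Slc4a1, Car2 and Hba-a1, were lower in some leukaemic libraries than in any preleukaemic one, as given below. Gata1 ranged from 229 to 396 CPM (the count of a gene scaled to a library of 1000000 counts after TMM normalisation), and Klf1, which drives the globin genes, from 44.4 to 119 CPM. Tal1 lay between 149.6 and 267 CPM, and Tfrc, the transferrin receptor, between 1528 and 2557 CPM. Of defining genes of other lineages, Mpo and Pax5 had at most 4 and 2 counts in any library, Lyz2 at most 9 and Cd3e at most 5, while the summed levels of the mast cell, megakaryocyte and granulocyte and macrophage lists were not close to 0 and are given below. Fanca was present at 28.1 to 44.1 CPM in the preleukaemic and 31.3 to 39.9 CPM in the leukaemic libraries and Spi1 at 215 to 332 CPM in the preleukaemic and 103 to 188 CPM in the leukaemic libraries. The Y-linked gene Ddx3y was at 0.303, 90.1, 0.0800 and 129 CPM against 241, 0.0254 and 121 CPM, and Xist had 240 counts in preleukemic_812 and 2 to 9 counts in the other libraries. Y-linked transcripts were thus at or near the floor in preleukemic_633, preleukemic_812 and leukemic_606, in both groups.

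**Figure D1:**
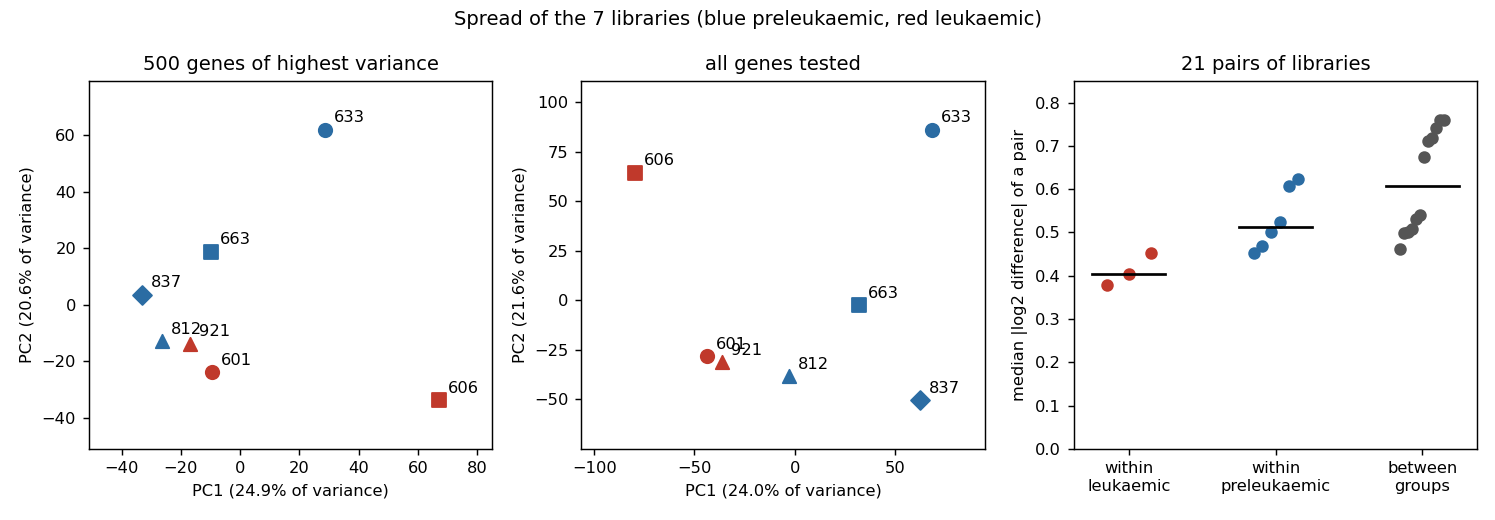
Left and middle, positions of the 7 libraries on the first and second principal components of log2 CPM, for the 500 genes of highest variance and for all genes tested (axes in component units with the percent of variance); right, the median absolute log2 difference of each pair of libraries, with bars at the median of each kind of pair. The 3 pairs of leukaemic libraries sit at 0.379 to 0.453, below the median of 0.512 of the 6 preleukaemic pairs and of 0.607 of the 12 pairs between groups.

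By the median difference over genes, leukaemic libraries lay closer together than most preleukaemic ones. The median absolute log2 difference between 2 libraries was 0.379 to 0.453 for the 3 leukaemic pairs and 0.452 to 0.624 for the 6 preleukaemic pairs, with medians of 0.403 and 0.512. Pearson's r across genes, which are not independent replicates, did not order the pairs in this way, at 0.903 to 0.911 for the leukaemic and 0.892 to 0.935 for the preleukaemic pairs. For the 12 pairs across stages the median absolute log2 difference was 0.462 to 0.759, with a median of 0.607. By this measure several pairs across stages were closer than the most distant preleukaemic pair. The common biological coefficient of variation was 0.587 in the fit of both groups, 0.597 for the preleukaemic and 0.571 for the leukaemic libraries alone. Over the 500 genes of highest variance, the first component (24.9% of variance) set mouse leukemic_606 apart, the second (20.6%) mouse preleukemic_633 and the third (17%) mouse preleukemic_812. On the second, the leukaemic libraries lay at −33.8 to −13.8 and the preleukaemic ones at −12.9 to 62.0, with preleukemic_812 next to leukemic_921, and with a prior count of 0.5 the groups overlapped there. Over all genes tested, the first component (24%) placed the leukaemic libraries at −79.8 to −36.4 and the preleukaemic ones at −2.8 to 68.3.

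Some genes were strongly expressed or nearly silent in 1 mouse only. Mouse preleukemic_633 had 196 genes more than 2-fold above all other libraries, preleukemic_812 had 143, and preleukemic_837 had 95, against 51 to 63 in the 3 leukaemic mice and 35 in preleukemic_663. Genes more than 2-fold below all other libraries numbered 81 in leukemic_921, 78 in preleukemic_633, 53 in preleukemic_837, 45 in leukemic_606, 42 in leukemic_601, 22 in preleukemic_812 and 8 in preleukemic_663. Igf2bp1, an oncofetal mRNA-binding protein gene, was at 98.3 CPM in preleukemic_633 and at most 0.0989 CPM elsewhere, and the embryonic globin gene Hbb-bh1 was at 81.5 CPM in preleukemic_633 and 0.0770 to 1.24 CPM elsewhere. The collagen-modifying enzyme gene Plod2 (86.9 CPM) and Crim1 (50.6 CPM), which encodes a transmembrane protein that binds bone morphogenetic proteins, were above 0.1 CPM in preleukemic_633 alone.

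In mouse preleukemic_663 the cyclin genes Ccnd1 and Ccnd2 stood apart in opposite directions. They encode D-type cyclins, which pair with CDK4 and CDK6 to start the cell cycle, as does Ccnd3, given below. Ccnd1 was at 33.2 CPM in preleukemic_663 and 0 to 0.643 CPM elsewhere, whereas Ccnd2 was at 0.400 CPM in preleukemic_663 and 32.4 to 339.9 CPM elsewhere. Slit1, an axon guidance ligand gene, reached 105 CPM in preleukemic_663. In preleukemic_812, Serpinb2, a plasminogen activator inhibitor gene, was at 28.8 CPM (other libraries 0 to 0.385) and Cttn, which encodes the actin-binding cortactin, at 0.213 CPM (other libraries 25.8 to 172). Mouse preleukemic_837 expressed Tbx4, a limb and lung T-box factor gene, at 43.2 CPM and the zinc finger gene Zfp979 at 139 CPM. The same mouse had 14.4 CPM of Pdk1, a pyruvate dehydrogenase kinase gene, against 191 to 317 CPM elsewhere.

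The leukaemic mice also had private patterns. Mouse leukemic_601 had 391.7 CPM of Id2, an inhibitor of basic helix-loop-helix factors (other libraries 0.454 to 13.9), and 0.154 CPM of the fatty acid desaturase gene Fads2 (other libraries 187 to 324). Mouse leukemic_606 stood out by Trib1, a pseudokinase gene (70.3 CPM, other libraries 0.107 to 1.67), and by Aqp1, the red cell water channel gene (0.533 CPM, other libraries 39.9 to 455). Mouse leukemic_921 had 32.1 CPM of App, the amyloid precursor gene (other libraries 0 to 0.0252), and 0.227 CPM of Trim44, a tripartite motif gene (other libraries 55.2 to 195). No gene of this kind was shared by the 3 leukaemic mice by construction, since each was chosen for 1 library.

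Whole chromosomes also stood apart in single mice. For each gene the log2 ratio of a library to the mean of the other 6 was taken, and the median over genes with a mean of at least 5 CPM was computed per chromosome. In leukaemic mouse leukemic_606 the median over 432 genes of chromosome 3 was 0.69, with 87.7% of them above the other libraries, and it was 0.56, 0.72 and 0.75 in the first, middle and last stretch of equal gene number. It was 0.23 in leukemic_601 and −0.27 in leukemic_921, so that the leukaemic mice did not share it. Mouse leukemic_921 had a median of 0.48 over 614 genes of chromosome 5, 78.2% of them above, and of 0.33 over 802 genes of chromosome 11. In the 3 stretches of chromosome 5 it was 0.57, 0.44 and 0.43 and in those of chromosome 11 0.41, 0.26 and 0.27, so that these deviations ran along whole chromosomes.

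Among preleukaemic mice, chromosome 18 was at 0.43 in preleukemic_633, chromosome 19 at 0.32 in preleukemic_663 and chromosome 7 at 0.26 in preleukemic_837. Other deviations covered part of a chromosome. In mouse preleukemic_812 the last stretch of chromosome 7 was at −0.89, with 8.5% of its genes above the other libraries. In preleukemic_663 the last stretch of chromosome 1 (176 genes) was at 0.53, with 84.7% above, and that of chromosome 15 (117 genes) at 0.50. The chromosome medians, taken as ratios to the median of all 7 libraries, were also set against stage in a two-sided exact permutation test for 20 chromosomes, but with 3 against 4 libraries its smallest possible p is 0.0571, so that no chromosome could pass. Chromosome 19 reached that p (adjusted p 0.76), at −0.076, −0.044 and −0.038 in the leukaemic and 0.0183, 0.242, 0 and 0.0478 in the preleukaemic libraries, which did not overlap. DNA copy number was not measured in these files, and its part in these values was not tested.

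**Figure D2:**
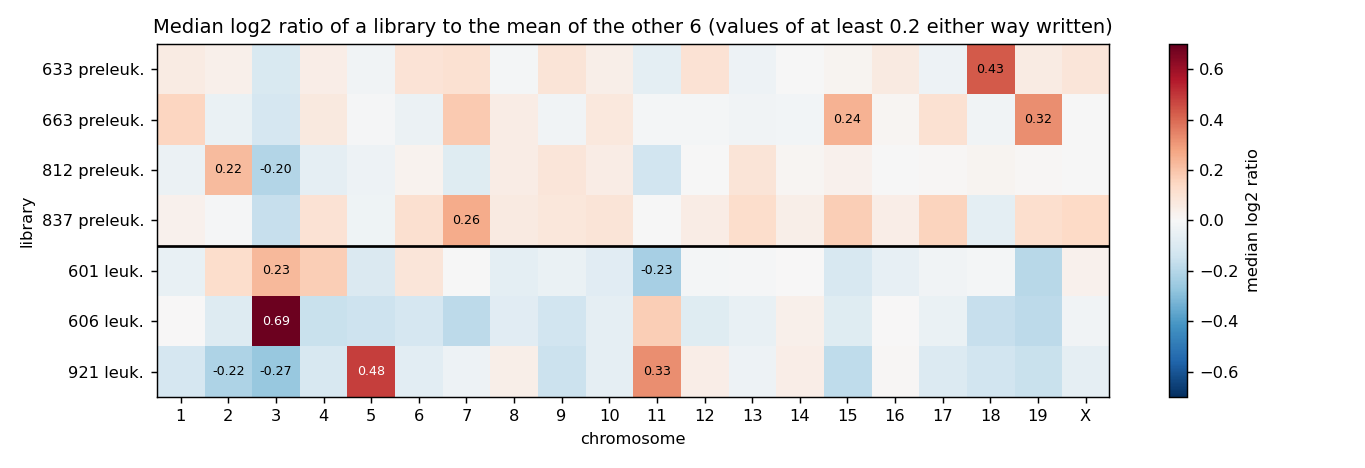
Median log2 ratio of each library (rows) to the mean of the other 6 libraries over the genes of each chromosome (columns), with values of at least 0.2 either way written in the cells and the line parting preleukaemic (above) from leukaemic libraries. The highest value is 0.69 for chromosome 3 in mouse leukemic_606, followed by 0.48 for chromosome 5 in leukemic_921 and 0.43 for chromosome 18 in preleukemic_633.

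A second property of the libraries touched the counts of genes in either direction. Genes with short exonic sequence tended to be higher in leukaemic libraries and those with long exonic sequence lower. The median log2 fold change (leukaemic minus preleukaemic) was 0.38, 0.14, −0.03, −0.20 and −0.39 from the shortest to the longest quintile of genes by exon length. In the shortest quintile 13.1% of genes were higher and 1.85% lower, and in the longest quintile 3.86% were higher and 24.4% lower. The trend differed between mice of a group. In the longest quintile, the median deviation from the gene mean was 0.31 in preleukemic_633 and 0.39 in preleukemic_837 but 0.06 in preleukemic_663 and −0.10 in preleukemic_812, and it was −0.12, −0.23 and −0.26 in leukemic_601, leukemic_606 and leukemic_921. With the trend of each library removed as an offset, which was chosen after seeing the data, 1266 genes were higher (9.76%) and 944 lower (7.28%), in place of 1114 and 1473, 2210 in all (17%). RNA integrity values were not used here, and their part in this trend was not tested. List counts with the trend removed are given below where they differ by 2 or more genes in a direction, and the other counts differed by at most 1.

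**Figure D3:**
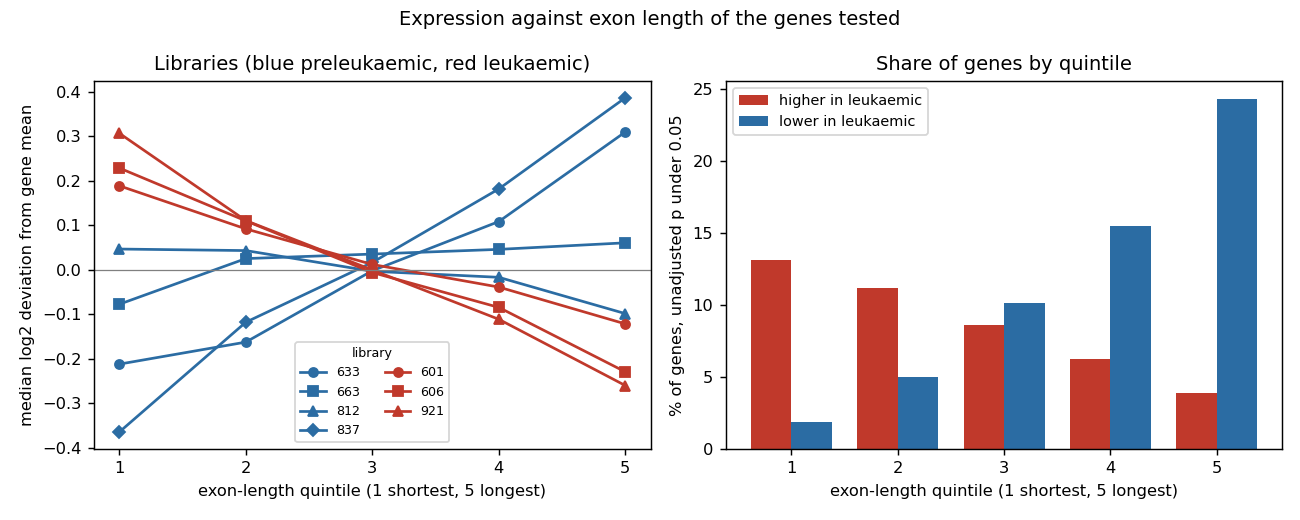
Left, median log2 deviation of each library from the gene mean over quintiles of the tested genes by exon length (1 shortest, 5 longest); right, percent of genes in each quintile at an unadjusted edgeR p under 0.05, higher or lower in leukaemic libraries. Lines of preleukemic_633 and preleukemic_837 run upwards and those of leukemic_601, leukemic_606 and leukemic_921 downwards, while the lower genes go from 1.85% to 24.4%.

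Gene lists that cover lineage, signalling, metabolic and chromatin programmes were then read in the same way. They were 49 in number and held 1233 symbols, of which 1157 had a row in the table and 993 were tested. The median log2 fold change lay below 0 in 38 lists, with −0.03 over all genes. The mast cell list had the highest median among lists of at least 5 tested members, 1.29, but it was 0.67 without leukemic_601, below that of the ribosomal proteins, 0.75. The megakaryocyte list had the lowest, −2.0, and the globins were lowest with the length trend removed, with a filter of at least 1 CPM in 3 libraries, in voom and without preleukemic_633, preleukemic_812, leukemic_606 or leukemic_921, and the HOX list in DESeq2 and with no filter. The map of the lists shows that all 3 leukaemic mice shared the contrast of stages for the erythroid transcription factor, membrane, globin and JAK-STAT5 lists. They also shared it for the mast cell, megakaryocyte, NOTCH, HOX, MYC network and ribosomal protein lists, whereas the haem and iron lists overlapped between the groups. In many others preleukemic_633, preleukemic_837 or leukemic_921 alone set the extreme.

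**Figure D4:**
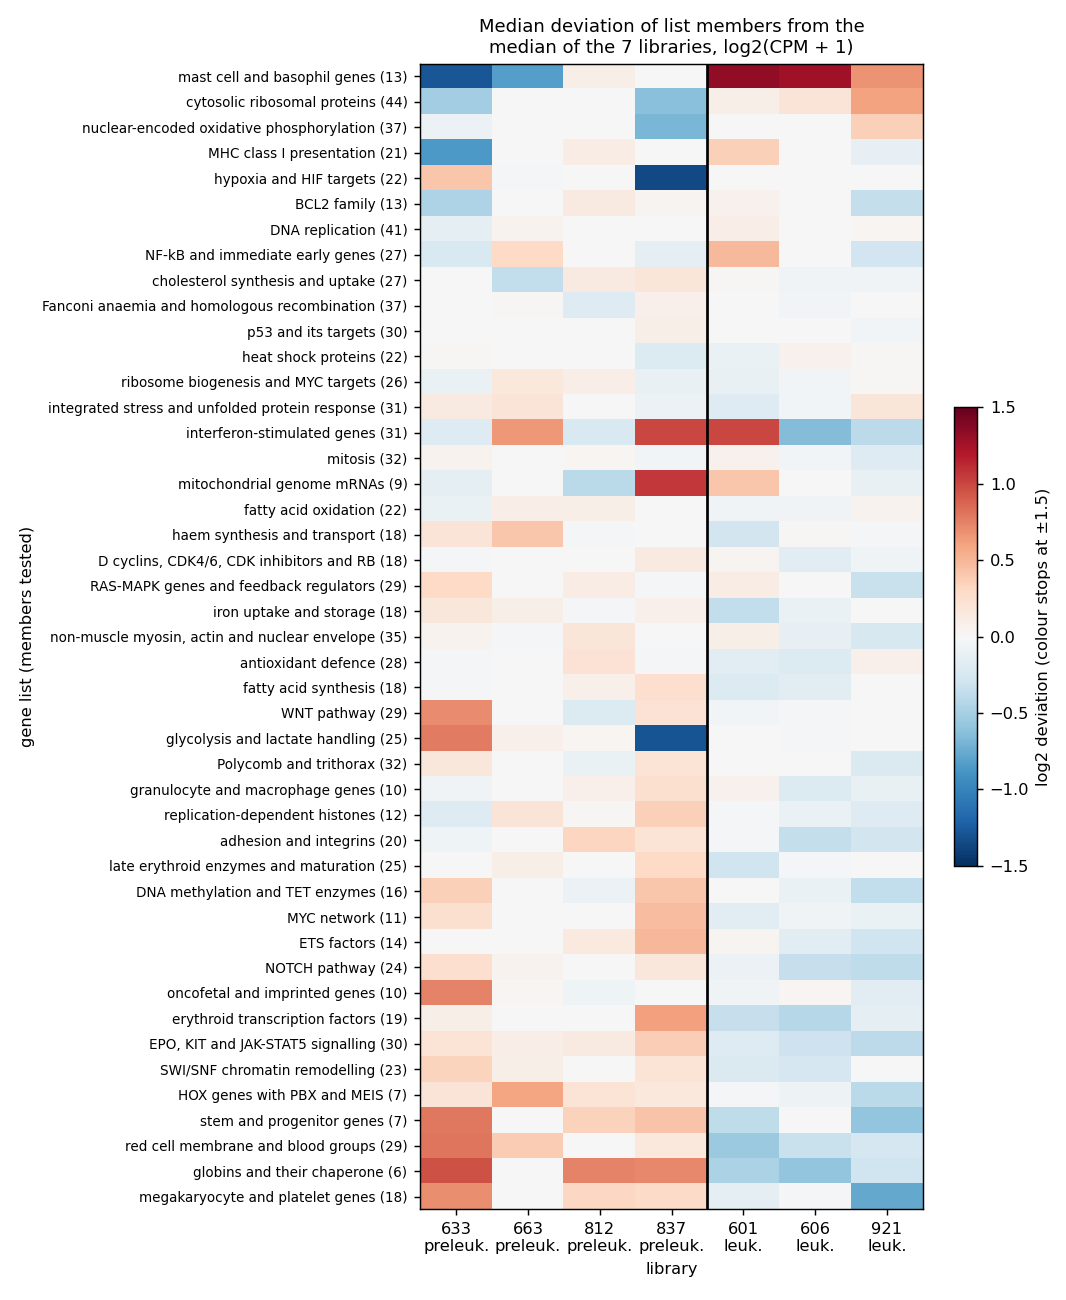
Median deviation of the tested members of each gene list (rows, with the number of members) from the median of the 7 libraries, on the log2(CPM + 1) scale, in each library (columns), with lists of at least 5 tested members ordered by their median log2 fold change. Mast cell genes are at 0.67 to 1.33 in the leukaemic libraries and −1.28 to 0.09 in the preleukaemic ones, and red cell membrane genes at −0.56 to −0.25 against 0.00 to 0.80.

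Mast cells and basophils store proteases and histamine in granules and carry the high-affinity IgE receptor. Of 13 tested genes of their list, 4 were higher in leukaemic libraries and 0 lower (5 and 0 without the length trend). Ms4a2, the β chain of the IgE receptor (chr19:11615523-11623719 on the minus strand of GRCm38), was at 1.16, 1.70, 4.24 and 0.717 CPM in the preleukaemic and 34.1, 62.1 and 83.4 CPM in the leukaemic libraries, a log2 fold change of 4.94 ± 0.67 (SE). Cpa3, the mast cell carboxypeptidase, was at 0, 0.875, 2.32 and 0.0247 CPM against 15.6, 31.4 and 12.6 CPM, 4.62 ± 1.54 on the log2 scale. Both genes were higher in each leukaemic library than in any preleukaemic library. Cma1, a chymase, was at 0, 0.300, 0.400 and 0.148 CPM against 4.49, 2.39 and 4.43 CPM (4.13 ± 1.04), and the basophil protease Mcpt8 had 5.18, 2.84 and 1.11 CPM in leukemic_601, leukemic_606 and leukemic_921 and at most 0.107 CPM, or 4 counts, in the preleukaemic libraries. Their adjusted p in edgeR's quasi-likelihood test with Benjamini-Hochberg adjustment was 0.162 for Ms4a2, Cma1 and Mcpt8 and 0.18 for Cpa3. Cpa3, Cma1 and Mcpt8 passed the filter on low counts only through the leukaemic libraries, so that their direction was set by the filter.

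The granule genes of highest level did not follow this order. Gzmb, the granzyme B gene, was at 0.454, 19.5, 3398 and 232 CPM in the preleukaemic and 1304, 325 and 2.38 CPM in the leukaemic libraries, with values that spanned the same range in both groups. Srgn, the granule proteoglycan gene, was at 126 to 835 CPM in the preleukaemic and 646 to 909.5 CPM in the leukaemic libraries. The summed level of the list, to which these contribute most, was 223.9 to 4527 CPM in the preleukaemic and 1299 to 2560 CPM in the leukaemic libraries. In bulk libraries, more cells of a type and more RNA per cell cannot be told apart. Kit, the receptor on which mast cells and erythroid progenitors depend, was at 239, 84.3, 42.7 and 95.3 CPM against 253, 193 and 143 CPM, with overlapping groups.

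To show what the start regions of these genes hold, the 250 bases before the RefSeq transcription start (GRCm38.p6) of the 4 mast cell genes, of Alas2, an erythroid gene described below, and of Epb42, another erythroid gene, are given 5′ to 3′ on the gene's strand, with short motifs in capitals. These are GATAA, the core of the site bound by GATA factors, with its reverse complement TTATC, as well as CACCC, a core bound by KLF factors, with its reverse complement GGGTG. They lie at chr19:11623720-11623969 (minus strand) for Ms4a2, chr3:20242182-20242431 (minus) for Cpa3, chr14:55944676-55944925 (minus) for Cma1, chr14:56085198-56085447 (minus) for Mcpt8, chrX:150547167-150547416 (plus) for Alas2 and chr2:121036878-121037127 (minus) for Epb42.
Ms4a2: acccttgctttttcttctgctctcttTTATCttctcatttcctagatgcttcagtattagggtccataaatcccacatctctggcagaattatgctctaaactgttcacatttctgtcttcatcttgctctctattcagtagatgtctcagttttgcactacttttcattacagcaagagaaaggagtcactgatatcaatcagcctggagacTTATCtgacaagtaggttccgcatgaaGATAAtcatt
Cpa3: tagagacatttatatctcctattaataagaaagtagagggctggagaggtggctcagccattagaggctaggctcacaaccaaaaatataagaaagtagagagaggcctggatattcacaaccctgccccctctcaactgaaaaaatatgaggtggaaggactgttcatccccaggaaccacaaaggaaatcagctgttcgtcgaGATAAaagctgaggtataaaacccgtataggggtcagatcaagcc
Cma1: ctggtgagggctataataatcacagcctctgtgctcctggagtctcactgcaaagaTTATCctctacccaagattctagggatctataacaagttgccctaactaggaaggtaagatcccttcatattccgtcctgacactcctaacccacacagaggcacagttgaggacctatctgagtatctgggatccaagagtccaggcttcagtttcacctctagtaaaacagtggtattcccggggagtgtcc
Mcpt8: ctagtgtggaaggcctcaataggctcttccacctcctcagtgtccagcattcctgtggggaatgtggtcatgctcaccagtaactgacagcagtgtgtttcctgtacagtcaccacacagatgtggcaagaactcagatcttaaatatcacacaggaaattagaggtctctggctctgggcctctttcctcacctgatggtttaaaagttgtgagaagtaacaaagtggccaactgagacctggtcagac
Alas2: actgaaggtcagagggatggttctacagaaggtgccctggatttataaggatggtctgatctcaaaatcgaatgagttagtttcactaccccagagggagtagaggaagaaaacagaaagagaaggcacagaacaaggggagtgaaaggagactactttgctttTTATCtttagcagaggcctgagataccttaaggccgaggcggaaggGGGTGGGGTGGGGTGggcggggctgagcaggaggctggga
Epb42: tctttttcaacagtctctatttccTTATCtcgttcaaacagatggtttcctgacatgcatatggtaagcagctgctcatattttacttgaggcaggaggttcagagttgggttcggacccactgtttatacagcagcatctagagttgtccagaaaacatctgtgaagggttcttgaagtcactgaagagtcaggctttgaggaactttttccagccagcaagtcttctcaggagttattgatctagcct
GATAA or its reverse occurred 3 times in the Ms4a2 window, the nearest beginning 10 bases before the start, once in Cpa3 (45 bases), Cma1 (194 bases), Alas2 (86 bases) and Epb42 (226 bases) and 0 times in Mcpt8. CACCC or its reverse occurred 3 times in Alas2 and 0 times in Epb42 and in the mast cell genes. Of 27025 genes with such a window, 23.02% held GATAA and 51.3% held CACCC on either strand, and no 2 matches overlapped in the windows shown. A match describes the sequence and not a bound site.

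Many erythroid transcription factor genes were lower. Of 19 tested, 8 were lower in leukaemic libraries and 0 higher, with a median log2 fold change of −0.62. The count was 4 without leukemic_606 or without preleukemic_837 and 5 without leukemic_601, and 3 with the length trend removed, with a median of −0.50. Zfpm1, which encodes the GATA1 cofactor FOG1, was at 153, 129, 140.3 and 200.1 CPM in the preleukaemic and 70.2, 41.7 and 35.1 CPM in the leukaemic libraries, −1.67 ± 0.29 on the log2 scale. Gata1 itself was at 391, 332, 290.0 and 396 CPM against 229.7, 229 and 230.2 CPM (−0.62 ± 0.17), with close values in the 3 leukaemic mice. Runx1, the haematopoietic runt factor gene, was at 45.2 to 78.8 against 29.7 to 37.2 CPM (−0.87 ± 0.24). For Foxo3, a factor of erythroid maturation, the log2 fold change was −1.42 ± 0.47, and it had an unadjusted p of 0.05 or more without leukemic_601. Klf1 at 63.0, 119, 77.4 and 96.2 CPM against 44.4, 53.03 and 94.7 CPM and Tal1 at 241, 206, 187 and 221 CPM against 149.6, 267 and 155 CPM overlapped between the groups, so that not every erythroid regulator was lower.

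The membrane skeleton and blood group genes were further apart. Of 29 tested, 11 were lower and 0 higher, with a median of −0.95 (10 lower and 1 higher with the length trend removed). Ank1, the ankyrin that ties the membrane skeleton to the membrane, was at 221, 219.9, 57.8 and 266 CPM in the preleukaemic and 56.6, 52.5 and 67.6 CPM in the leukaemic libraries (−1.70 ± 0.48), where preleukaemic mouse preleukemic_812 lay at the level of the leukaemic mice. Epb41, protein 4.1, was at 212 to 627 against 153 to 171 CPM (−1.35 ± 0.35), and Cldn13, a claudin gene of erythroid cells, at 61.2 to 139 against 38.9 to 47.0 CPM (−1.39 ± 0.30). Slc4a1, the band 3 anion exchanger of mature red cells, was at 66.0, 34.4, 14.1 and 119 CPM against 1.64, 15.3 and 4.68 CPM (−3.02 ± 0.96), again with preleukemic_812 within the leukaemic range and an unadjusted p of 0.05 or more without leukemic_921. The summed mast cell level was lowest in preleukemic_633 and highest in preleukemic_812, the preleukaemic mouse with the lowest Ank1 and Slc4a1, and its part in these values was not tested.

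Globin, haem and iron genes gave fewer differences. Of 6 tested genes of the globin list 3 were lower and 0 higher (median −1.89). Hba-a1, an adult α-globin gene, was at 252, 236, 279 and 409 CPM against 17.9, 107 and 70.8 CPM (−2.17 ± 0.56), and Hbb-bt, an adult β-globin gene, at 289, 1081, 1093 and 2130.5 CPM against 112, 105 and 462 CPM (−2.34 ± 0.79). Its near-identical neighbour Hbb-bs was at 3649, 903, 6356 and 2121 CPM against 1869, 818 and 1812 CPM, with overlapping groups, and since reads of such copies can be assigned to either, the values of single globin genes are uncertain. In the haem list 3 of 18 were lower and 0 higher (1 lower without leukemic_921), with a median of −0.18. Alas2, which starts haem synthesis in red cells and whose start region is shown above, was at 86.8, 46.3, 14.0 and 34.1 CPM against 1.69, 14.6 and 2.33 CPM (−2.87 ± 0.94), and Fech, which inserts the iron, at 133 to 415 against 88.6 to 120.0 CPM (−1.03 ± 0.42). The groups overlapped in Alas2 by preleukemic_812 and leukemic_606 alone, at 14.0 and 14.6 CPM. Alas2 lost its unadjusted p under 0.05 without leukemic_921, Fech without leukemic_601, leukemic_606 or leukemic_921 and Hbb-bt without leukemic_601 or leukemic_606. Of 18 iron genes 4 were lower and 1 higher: Aco1, the iron-sensing protein IRP1, was at 101 to 163 against 49.4 to 65.4 CPM (−1.18 ± 0.22), and Fbxl5, which removes IRP2 when iron is ample, at 27.2 to 62.9 against 78.8 to 104 CPM (1.20 ± 0.32). Tfrc was at 1702 to 2462 against 1528 to 2557 CPM. Of 25 late erythroid genes 3 were lower and 0 higher, among them Rnf10, a RING finger protein gene, at 128 to 308 against 68.3 to 123 CPM (−1.01 ± 0.36), and Car2, carbonic anhydrase 2, at 1020.1, 836.7, 163 and 511 CPM against 27.0, 234 and 191 CPM (−2.07 ± 0.83), whose unadjusted p was 0.05 or more without preleukemic_633, preleukemic_663, preleukemic_837, leukemic_601 or leukemic_921. The late erythroid count was 1 without leukemic_601 and 5 without leukemic_606 or leukemic_921.

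Megakaryocyte and platelet genes had a median of −2.0, with 8 of 18 lower and 0 higher (5 lower without preleukemic_633, and 3 with a filter of at least 1 CPM in 3 libraries). The median was −1.11 without preleukemic_633, −1.04 without preleukemic_812 and −0.83 with that filter. The genes involved were expressed at low levels. Vwf, von Willebrand factor, was at 1.94, 0.350, 1.01 and 1.06 CPM against 0.103, 0.127 and 0.170 CPM (−3.01 ± 0.69), and Thbs1, thrombospondin, at 0.303, 0.0750, 0.293 and 0.816 CPM against 0.0256, 0 and 0 CPM. Mef2c, a transcription factor of megakaryocytes, was at 34.0, 3.72, 0.693 and 6.33 CPM against 0.564, 0.152 and 0.0284 CPM (−5.47 ± 1.61), and Gp5, a platelet glycoprotein, at 31.0, 40.5, 33.0 and 36.6 CPM against 16.7, 25.1 and 16.2 CPM (−0.87 ± 0.25). All 4 had groups that did not overlap. Vwf, Thbs1 and Mef2c passed the filter on low counts only through the preleukaemic libraries, so that their direction was set by the filter. The 2 members of highest level per kilobase were not lower: Plek, a pleckstrin of platelets, was at 629.7 to 1124 against 391 to 1013 CPM, and Pf4, platelet factor 4, at 5.37 to 14.8 against 3.35 to 18.9 CPM. The summed level of the list was 759 to 1447 CPM in the preleukaemic and 423 to 1087 CPM in the leukaemic libraries.

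Lists of other lineages were read in the same way. Summed levels of their lists in preleukaemic and leukaemic libraries were 776 to 1481 and 326 to 826 CPM for granulocytes and macrophages, 52.5 to 178 and 22.3 to 81.5 CPM for B cells, and at most 8.22 CPM for T and NK cells, and their part in the erythroid results was not tested. Of 10 tested granulocyte and macrophage genes 2 were lower (4 without leukemic_601) and 0 higher: Emilin2, which encodes an extracellular matrix glycoprotein, was at 215 to 423 against 112 to 231 CPM (−0.998 ± 0.34), and Tyrobp, a signalling adaptor of myeloid cells, at 0.625 to 11.49 against 0.812 to 1.08 CPM (−2.33 ± 0.91). In the stem and progenitor list 1 of 7 was lower, Slamf1, a surface receptor of stem cells, at 17.7, 1.95, 1.57 and 3.14 CPM against 0.564, 0.0508 and 0 CPM (−4.86 ± 1.64). Slamf1 passed the filter on low counts only through the preleukaemic libraries, so that its direction was set by the filter. Cd34 had 78 counts in preleukemic_633, 2 in preleukemic_663 and 0 in the other libraries. In the B cell list 3 genes were tested and 1 was higher, Ighm, the heavy chain of IgM, at 6.03, 0.66 and 0.624 CPM in the leukaemic libraries and 0 counts in each preleukaemic library. Ighm passed the filter only through the leukaemic libraries, which set its direction. Neither of the 2 T and NK cell genes nor of the 2 endothelial and stromal genes tested differed at this threshold, in edgeR or after removal of the length trend.

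EPO and KIT signal through JAK2 to STAT5 and through adaptors to PI3-kinase and RAS. Of 30 tested genes of this list, 9 were lower and 0 higher, with a median of −0.62 (8 lower and 1 higher with the length trend removed). Irs2, an insulin and cytokine receptor adaptor, was at 86.6, 62.2, 30.4 and 62.9 CPM in the preleukaemic and 15.5, 17.5 and 23.5 CPM in the leukaemic libraries (−1.69 ± 0.37). Jak2, the kinase bound to the EPO receptor, was at 177, 168, 84.3 and 143 CPM against 62.5, 48.8 and 81.3 CPM (−1.16 ± 0.30), and Pik3r1, the regulatory subunit of PI3-kinase, at 68.4 to 140.3 against 38.2 to 53.2 CPM (−1.27 ± 0.28). For these genes each leukaemic value was below each preleukaemic value, although Jak2 in preleukemic_812 and leukemic_921 was close (84.3 and 81.3 CPM). Inpp5d, the lipid phosphatase SHIP1 that opposes PI3-kinase, was lower too, at 129.5 to 310.4 against 69.6 to 98.4 CPM (−1.29 ± 0.31), so that activating and restraining members were lower together. Gab2, an adaptor downstream of KIT, was at 156, 91.7, 709 and 153 CPM against 67.5, 54.0 and 65.1 CPM (−2.16 ± 0.71), with preleukemic_812 far above its group and an unadjusted p of 0.05 or more without leukemic_606. Pim1, a STAT5 target kinase, was at 229.7 to 435 against 132 to 196 CPM (−0.84 ± 0.29), which depended on leukemic_606 or leukemic_921 in the same way. Epor was at 85.8, 111, 309.6 and 69.3 CPM against 65.2, 67.7 and 81.3 CPM, its highest value in preleukemic_812 and the other libraries overlapping.

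In the RAS-MAPK list, 3 of 29 were lower and 1 higher, close to the share over all genes. Mknk2, a kinase of the translation factor eIF4E, was at 139 to 299 against 73.1 to 84.7 CPM (−1.34 ± 0.30), and Map2k2, the kinase MEK2, at 101 to 110.1 against 63.0 to 77.4 CPM (−0.65 ± 0.16), whereas Hras was at 23.9 to 38.4 against 38.4 to 47.5 CPM (0.56 ± 0.23) with groups that touched in preleukemic_633 and leukemic_601. Nras was at 214, 155, 161 and 158 CPM against 272, 304 and 153 CPM, the highest values in leukemic_606 and leukemic_601, the 2 mice with the highest chromosome 3 medians (0.69 and 0.23), which carries this gene.

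Spi1 mRNA, which sums the transgene and the endogenous gene, was at 215, 243, 274 and 332 CPM against 174, 103 and 188 CPM, −0.78 ± 0.26 on the log2 scale, and its unadjusted p was 0.05 or more without leukemic_606. Of 14 tested ETS factor genes 3 were lower and 0 higher (median −0.51), 0 without leukemic_606 and 1 with the length trend removed. Elf1, an ETS factor of blood cells, was at 102 to 187 against 71.4 to 90.8 CPM (−0.82 ± 0.26, with an unadjusted p of 0.05 or more without leukemic_606), and Gabpa, the GA-binding protein α, at 98.6 to 166 against 66.4 to 87.3 CPM (−0.66 ± 0.24).

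Genes of DNA replication were more often higher than lower. Of 41 tested, 14 were higher and 6 lower (16 and 3 with the length trend removed, and 3 lower without preleukemic_663 or without leukemic_921), with a median of 0.12. Over all genes 8.59% were higher and 11.4% lower, so that only the higher count was well above its share. Gins2, a subunit of the replicative helicase, was at 33.4, 38.7, 39.4 and 25.9 CPM in the preleukaemic and 66.5, 77.3 and 71.7 CPM in the leukaemic libraries (1.06 ± 0.20). Orc6, of the origin recognition complex, was at 91.3, 90.6, 114 and 84.3 CPM against 207, 181 and 157 CPM (0.93 ± 0.18). Rpa3, of the single-strand binding protein, was at 42.6 to 76.4 against 118 to 136 CPM (0.99 ± 0.22), and Prim1, the primase that starts new strands, at 73.0 to 128 against 186 to 234 CPM (0.97 ± 0.22). These 4 were higher in every leukaemic mouse. The cyclin gene Ccne2, which drives entry into S phase, was at 71.5, 93.0, 92.7 and 84.4 CPM against 311, 153 and 129 CPM (1.21 ± 0.31). Some MCM helicase subunits pointed the other way: Mcm6 was at 324 to 417 against 229 to 259 CPM (−0.59 ± 0.17) and Mcm4 at 174 to 369 against 129 to 166 CPM (−0.78 ± 0.27), the latter with an unadjusted p of 0.05 or more without leukemic_921. Pcna, the sliding clamp, was at 411 to 908 against 628 to 943 CPM, with overlapping groups.

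Mitotic genes went in both directions, with 3 of 32 higher and 6 lower (6 and 4 with the length trend removed, 3 lower without leukemic_921). Birc5, survivin, was at 97.6, 100.3, 124 and 91.6 CPM against 158, 218 and 228 CPM (0.96 ± 0.20), and Mad2l1, the spindle checkpoint protein MAD2, at 170.5 to 281 against 298 to 432 CPM (0.78 ± 0.23). Numa1, which organizes spindle poles, was at 102 to 168 against 53.9 to 63.1 CPM (−1.11 ± 0.22), and the checkpoint kinase gene Bub1b at 159.6 to 258 against 116 to 139 CPM (−0.79 ± 0.22). Among D cyclins, CDK4/6, their inhibitors and the RB family, 3 of 18 were lower and 0 higher (5 lower without preleukemic_812 or without leukemic_601). Ccnd3, the cyclin that times divisions of erythroid precursors, was at 366, 187, 265 and 222 CPM in the preleukaemic and 102, 110.0 and 73.3 CPM in the leukaemic libraries (−1.45 ± 0.28), and Rb1 at 113 to 173 against 79.9 to 88.8 CPM (−0.71 ± 0.20). E2f4, a transcription factor bound by RB family proteins, was at 147 to 225 against 92.9 to 132 CPM (−0.78 ± 0.23). Replication genes thus had more higher than lower members at this threshold, though 22 log2 fold changes were positive and 19 negative. Mitotic and G1 genes had more lower than higher members before the length trend was removed. The same held over all genes, at 11.4% lower and 8.59% higher.

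In the p53 list 5 of 30 were lower (2 without leukemic_606) and 2 higher, with a median of −0.02. Trp53 itself was at 514, 477, 229 and 623 CPM against 246, 120.1 and 257 CPM (−1.15 ± 0.40), where preleukemic_812 lay below 2 of the leukaemic mice, and its unadjusted p was 0.05 or more without preleukemic_837 or leukemic_606. Apaf1, of the apoptosome, was at 65.9 to 114 against 44.0 to 48.0 CPM (−0.90 ± 0.24), and Tnfrsf10b, a death receptor gene, at 0.173 to 0.807 against 0.0254 to 0.0513 CPM, whereas Rrm2b, the p53-induced ribonucleotide reductase subunit, was at 16.4 to 25.8 against 33.4 to 41.6 CPM (0.75 ± 0.24). Tnfrsf10b passed the filter on low counts only through the preleukaemic libraries, so that its direction was set by the filter. Mdm4, an inhibitor of p53, was at 139, 145, 70.6 and 155 CPM against 98.5, 72.8 and 156 CPM, with overlapping groups. In the BCL2 family 0 of 13 were higher and 0 lower in edgeR (3 lower without leukemic_601), and Mcl1, which protects blasts from death, was at 196 to 347 against 273 to 579.9 CPM.

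Among chromatin regulators, Smarca4 and Dnmt1 stood well apart between the groups. Smarca4, the BRG1 ATPase of SWI/SNF complexes, was at 267, 223, 413 and 258 CPM in the preleukaemic and 88.1, 90.8 and 93.7 CPM in the leukaemic libraries (−1.67 ± 0.24), and Dnmt1, which copies DNA methylation after replication, at 391.5, 278, 364 and 389 CPM against 141, 134 and 103 CPM (−1.496 ± 0.21). In both, the range among the leukaemic mice was smaller than the gap to the preleukaemic mice. Of 23 tested SWI/SNF genes 9 were lower and 0 higher (median −0.67), 8 lower and 3 higher with the length trend removed. Arid1b, a DNA-binding subunit, was at 52.1, 31.9, 30.3 and 59.4 CPM against 17.9, 14.6 and 17.03 CPM (−1.39 ± 0.31), Dpf2, a histone reader, at 141 to 192 against 77.7 to 103 CPM (−0.85 ± 0.19), and Arid2 at 91.0 to 169 against 64.2 to 76.1 CPM (−0.92 ± 0.23). Among DNA methylation and TET genes 3 of 16 were lower and 0 higher (5 lower without preleukemic_812, and 4 lower and 2 higher with the length trend removed): besides Dnmt1, Mbd2, a reader of methylated DNA, was at 148 to 189 against 67.8 to 112 CPM (−0.86 ± 0.21), and Uhrf1, the partner that guides DNMT1, at 137.8 to 247 against 102 to 157 CPM (−0.65 ± 0.26). Of 32 Polycomb and trithorax genes 2 were higher and 3 lower (7 lower without preleukemic_812, 0 without leukemic_606 and with the length trend removed, and 1 without leukemic_921), among them Eed, a core subunit of PRC2, at 61.8 to 88.2 against 121 to 141 CPM (0.77 ± 0.17), and Jarid2, a PRC2 cofactor, at 29.3 to 58.9 against 21.1 to 24.7 CPM (−0.91 ± 0.31). Of 12 replication-dependent histone genes 4 were lower, which polyA selection captures only in part, and the count was 1 without preleukemic_837, leukemic_601 or leukemic_921 and 2 without preleukemic_663.

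Cytosolic ribosomal proteins were the largest group of higher genes, with 21 of 44 higher, 0 lower and a median log2 fold change of 0.62. Rpl34 was at 456, 679, 742 and 418 CPM in the preleukaemic and 1372, 2186 and 1299 CPM in the leukaemic libraries (1.497 ± 0.30), Rpl22 at 342 to 578 against 773 to 897 CPM (0.82 ± 0.22), and Rpl38 at 126 to 245 against 293 to 484 CPM (1.07 ± 0.29). Rps27 was at 361, 485, 450.9 and 322 CPM against 1054, 1320.3 and 911 CPM (1.44 ± 0.22). Rpl34 and Rps27 both lie on chromosome 3, whose median was high in leukemic_606, the mouse with their highest values. The group effect leaned on 1 leukaemic mouse: the median deviation of the 44 genes from the median library was 0.61 in leukemic_921, 0.19 in leukemic_606 and 0.08 in leukemic_601, against −0.62 in preleukemic_837, −0.52 in preleukemic_633, −0.01 in preleukemic_663 and 0.00 in preleukemic_812. Without leukemic_921 the count was 7, and with the length trend removed it was 16 with a median of 0.50. The median exon length of these genes was 2011 bases, against 3883 over all genes. Many ribosomal protein genes have processed copies elsewhere in the genome, so that their single values are uncertain. Ribosome biogenesis factors were lower or higher in equal measure, 4 lower and 3 higher of 26 (0 higher without preleukemic_633, leukemic_606 or leukemic_921, 1 without preleukemic_837): Ncl, nucleolin, was at 3204, 1970.3, 2128 and 2000.0 CPM against 994, 1089 and 1480.5 CPM (−0.97 ± 0.27), and Nolc1, a nucleolar chaperone, at 298 to 594 against 194 to 248 CPM (−0.98 ± 0.26).

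In the MYC network 4 of 11 were lower and 1 higher (2 lower without preleukemic_663, preleukemic_837, leukemic_601 or leukemic_921, and 0 with the length trend removed). Mlx, a partner of the glucose-sensing MondoA factor, was at 59.9, 87.1, 115 and 78.0 CPM against 128, 211 and 209.5 CPM (1.10 ± 0.28), and Mxd4, a MYC antagonist, at 36.8 to 53.04 against 20.4 to 32.9 CPM (−0.82 ± 0.25). Myc was at 229, 198, 247 and 315 CPM against 101, 273 and 152 CPM, with overlapping groups.

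Nuclear genes of oxidative phosphorylation were 10 of 37 higher and 1 lower, with a median of 0.34, but this rested on few mice. The list deviated by −0.69 in preleukemic_837 and by 0.36 in leukemic_921, and by −0.09 to 0.01 in the other 5. The higher count was 4 without leukemic_921, 6 without leukemic_606, 16 without preleukemic_812 and 5 with the length trend removed. Ndufb3, of complex I, was at 51.9 to 89.7 against 116 to 193 CPM (1.01 ± 0.25), and Sdha, the catalytic subunit of complex II, at 294 to 478 against 143 to 240.0 CPM (−0.97 ± 0.26). The mRNAs of the mitochondrial genome (9 tested, 0 higher and 0 lower in edgeR) deviated by 1.06 in preleukemic_837. That mouse also had the lowest glycolysis (−1.29) and hypoxia (−1.35) lists, so that its metabolic transcripts differed from those of every other library.

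Glycolysis genes were lower in 3 of 25 (6 without preleukemic_837) and higher in 0. Hk1, the hexokinase of erythroid cells, was at 709, 537, 448 and 729 CPM in the preleukaemic and 299, 229.8 and 259 CPM in the leukaemic libraries (−1.21 ± 0.23), and Pfkm, a phosphofructokinase, at 189, 226, 74.3 and 163 CPM against 55.5, 70.0 and 78.5 CPM (−1.26 ± 0.37). Only Hk1 of these had no overlap, since Pfkm in preleukemic_812 lay within the leukaemic range. Ldha, lactate dehydrogenase A, was at 4195, 3012, 4499 and 1181 CPM against 3625, 2373 and 3992 CPM, its lowest value in preleukemic_837. In the hypoxia list 2 of 22 were higher and 1 lower, and Bnip3, a mitophagy receptor induced by HIF, was at 21.6 CPM in preleukemic_837 and 185 to 544 CPM elsewhere.

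Lipid genes were found in both directions. Decr1, a mitochondrial enzyme for unsaturated fatty acids, was at 26.04, 26.9, 32.2 and 36.4 CPM in the preleukaemic and 65.9, 108 and 81.0 CPM in the leukaemic libraries (1.48 ± 0.23), whereas Cpt1a, which admits long-chain fatty acids to the mitochondrion, was at 46.3, 55.2, 50.4 and 98.7 CPM against 14.7, 13.3 and 7.24 CPM (−2.41 ± 0.39). Neither gene overlapped between the groups. Fatty acid oxidation genes were 2 of 22 higher and 5 lower, fatty acid synthesis genes 1 of 18 higher and 5 lower, and cholesterol genes 3 of 27 higher and 3 lower. The fatty acid synthesis count of 5 was 2 without preleukemic_837 or leukemic_606 and 3 without preleukemic_812 or leukemic_601 and with the length trend removed, and the cholesterol count of 3 lower was 5 without preleukemic_663 and 1 with the trend removed. Scd2, a stearoyl-CoA desaturase, was at 2444 to 3393 against 1214 to 1715 CPM (−1.01 ± 0.23), and Elovl6, an elongase, at 43.4, 97.3, 74.0 and 93.4 CPM against 185, 339.8 and 152 CPM (1.55 ± 0.36). Pmvk, of the mevalonate pathway, was at 99.9 to 154 against 234 to 315 CPM (1.18 ± 0.21), and Insig1, which restrains that pathway, at 27.8 to 113 against 142 to 456 CPM (1.62 ± 0.55), whose unadjusted p was 0.05 or more without leukemic_921.

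Inflammatory and stress lists were read next. Of 31 tested interferon-stimulated genes 0 were higher and 0 lower in edgeR (5 lower without leukemic_601), although the list deviated by 1.0 in leukemic_601 and in preleukemic_837, 0.65 in preleukemic_663 and −0.65 in leukemic_606. Isg15, a ubiquitin-like protein induced by interferon, was at 3.76, 14.4, 3.95 and 27.5 CPM against 75.5, 4.39 and 3.12 CPM, with leukemic_601 far above the other leukaemic mice. MHC class I presentation genes were 1 of 21 higher and 1 lower (4 higher without preleukemic_812, 3 lower without preleukemic_633), and the list was at −0.86 in preleukemic_633. NF-kB and immediate early genes were 2 of 27 higher and 1 lower (5 higher without leukemic_921): Klf6, an immediate early zinc finger factor, was at 47.6, 68.1, 119 and 81.0 CPM against 253, 142 and 183 CPM (1.29 ± 0.33). The integrated stress and unfolded protein response list was 1 of 31 higher and 2 lower (3 and 4 without preleukemic_812), and heat shock proteins were 1 of 22 either way, with Hspe1, a mitochondrial chaperonin, at 285 to 631 against 816 to 1151 CPM (1.08 ± 0.31). Antioxidant genes were 7 of 28 lower and 3 higher, 3 lower with the length trend removed and 3 or 4 lower without leukemic_606, leukemic_601, preleukemic_663 or preleukemic_812: Txn1, thioredoxin, was at 202, 206, 353 and 156 CPM against 614, 451.04 and 414 CPM (1.11 ± 0.30), and Nfe2l2, the NRF2 regulator of this programme, at 61.8 to 97.1 against 37.0 to 52.0 CPM (−0.95 ± 0.23).

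FANCA was intact in these mice, and genes of its pathway were described for that reason. Of 37 Fanconi anaemia and homologous recombination genes 3 were higher and 2 lower (6 lower without preleukemic_812), and 7 were higher with the length trend removed. Ube2t, the ubiquitin-conjugating enzyme of the Fanconi core complex, was at 30.1, 36.2, 33.6 and 28.6 CPM against 51.3, 60.2 and 52.7 CPM (0.77 ± 0.18), and Fancb, a core complex subunit, at 13.1 to 25.4 against 33.1 to 35.4 CPM (0.81 ± 0.27). Wrn, a RecQ helicase, was at 104 to 164 against 54.4 to 74.6 CPM (−1.01 ± 0.22). NOTCH pathway genes were lower in 5 of 24 (2 without leukemic_606, 3 without preleukemic_837 and with the trend removed), among them Numb, Ncstn, Spen and Maml1, and WNT pathway genes in 2 of 29 (6 without preleukemic_812) with 1 higher. Numb, an antagonist of NOTCH signalling, was at 27.5 to 43.2 against 19.3 to 20.5 CPM (−0.79 ± 0.23). In the HOX, PBX and MEIS list 2 of 7 were lower and 0 higher (1 lower without leukemic_606, leukemic_921 or preleukemic_663 and with the trend removed), and in the oncofetal list 0 of 10 either way (3 lower without leukemic_606).

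Genes of shape and adhesion were lower in part. Of 35 non-muscle myosin, actin and nuclear envelope genes 7 were lower and 0 higher (median −0.25), and of 20 adhesion genes 3 were lower and 0 higher (5 lower without preleukemic_633, 6 without leukemic_601). Myh9, the non-muscle myosin heavy chain that drives cytokinesis, was at 192, 196, 218 and 455 CPM against 113, 74.7 and 76.7 CPM (−1.59 ± 0.37), and Rac2, a small GTPase of blood cells, at 435 to 606.4 against 202 to 369 CPM (−0.99 ± 0.25). Tln1, talin, which links integrins to actin, was at 271 to 699 against 97.0 to 267 CPM (−1.43 ± 0.46), with an unadjusted p of 0.05 or more without leukemic_606.

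Beyond the lists, genes of smallest p with groups that did not overlap were read across the table, 12 in each direction. They included genes with an almost complete difference. Tceal8, a gene related to transcription elongation factor A (chrX:136168984-136172342 on the minus strand), was at 54.8, 55.2, 52.6 and 69.1 CPM in the preleukaemic and 0.308, 0.305 and 1.48 CPM in the leukaemic libraries (−6.38 ± 0.70), and was called by voom with sample quality weights and by edgeR without leukemic_921. Ctsc, cathepsin C, which activates granule proteases (chr7:88278085-88310888, plus strand), was at 0.0252, 0.0250, 0.187 and 0.0495 CPM against 0.462, 84.7 and 132 CPM, so that it was high in leukemic_606 and leukemic_921 but near the floor in leukemic_601, and it was called by edgeR without leukemic_601. Arhgap4, a GTPase-activating protein gene (chrX:73891442-73921870, minus strand), was at 13.7, 9.65, 14.8 and 11.1 CPM against 1.10, 0.838 and 1.79 CPM (−3.31 ± 0.45). The other lower genes were Stard10, a lipid transfer protein gene (−3.79 ± 0.63), Bin2, a BAR domain protein gene (−1.85 ± 0.32), Aqr, an RNA helicase gene of the spliceosome (−1.41 ± 0.23), Pabpc1, the poly(A)-binding protein gene (−1.28 ± 0.22), Dctn1, of dynactin (−1.14 ± 0.18), Sympk, a scaffold of mRNA 3′ end processing (−1.03 ± 0.17), and Psmf1, a proteasome inhibitor gene (−1.01 ± 0.16), with Dnmt1, Smarca4 and Cpt1a given above. The higher ones, besides Ms4a2, Decr1, Rps27, Pmvk and Ctsc, were Gucy2g, a guanylate cyclase gene with at most 3 counts in each preleukaemic library, Selenof, a selenoprotein gene (1.68 ± 0.30), Tmem256 (1.53 ± 0.25), Dctpp1, a dCTP pyrophosphatase gene (1.34 ± 0.23), Tk1, thymidine kinase (1.30 ± 0.22), Coa3, an assembly factor of cytochrome oxidase (1.25 ± 0.23), and Glrx3, a glutaredoxin gene (1.005 ± 0.17). Ctsc and Gucy2g passed the filter on low counts only through the leukaemic libraries, so that their direction was set by the filter. All 24 genes had an adjusted p of 0.162 in edgeR's quasi-likelihood test with Benjamini-Hochberg adjustment.

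**Figure D5:**
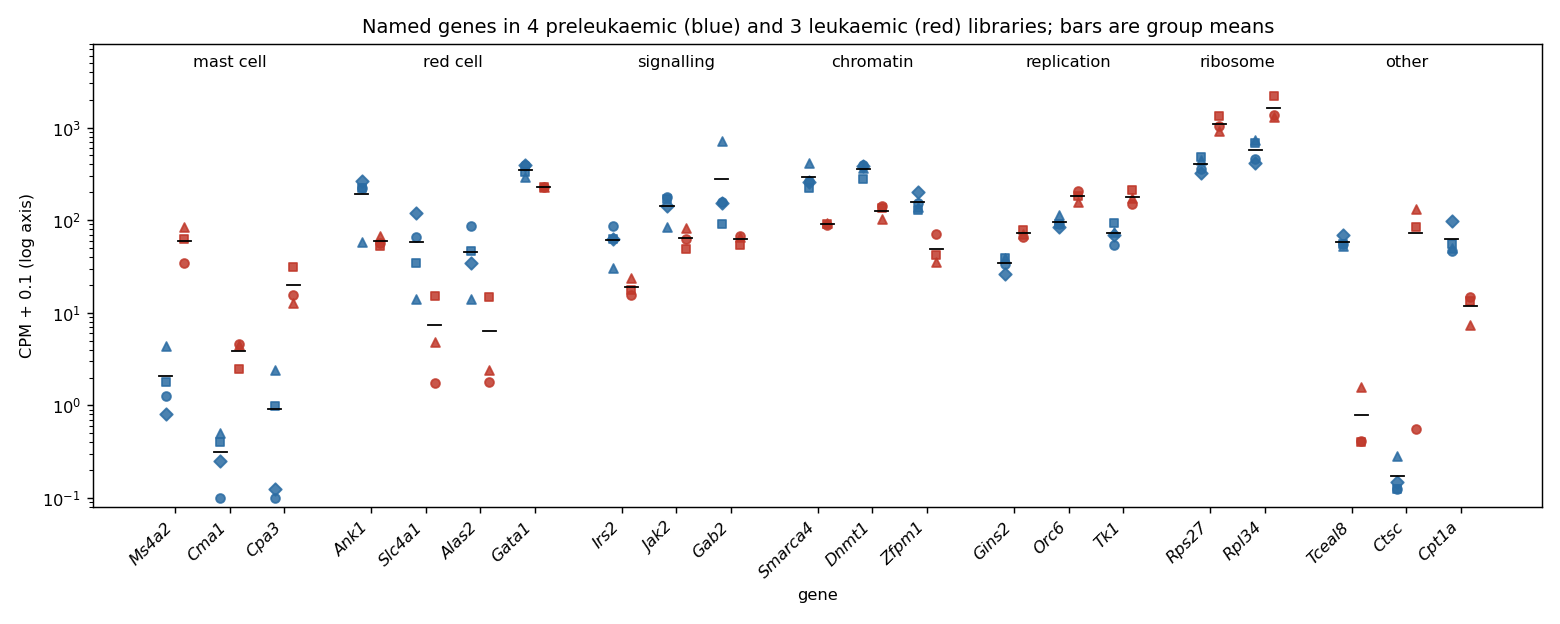
CPM + 0.1 on a log axis of named genes in the 4 preleukaemic (blue) and 3 leukaemic (red) libraries, 1 point per library with a bar at the group mean; circle, square, triangle and diamond are preleukemic_633, preleukemic_663, preleukemic_812 and preleukemic_837 in blue, and circle, square and triangle are leukemic_601, leukemic_606 and leukemic_921 in red. Ms4a2 runs from 0.717 to 4.24 CPM in the preleukaemic and from 34.1 to 83.4 CPM in the leukaemic libraries, and Smarca4 from 223 to 413 against 88.1 to 93.7 CPM.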

How the data were processed

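PolyA RNA of 7 blast libraries, 1 per mouse, had been sequenced by the authors after a TruSeq Stranded mRNA preparation. The deposited values are raw read counts per gene, made by the authors from these reads. According to the submitters' processing notes they used bcl2fastq 2.17.1.14, STAR 2.5.3a and HTSeq 0.6.1p1 on mm10/GRCm38. The strand setting of the counting is not given in the sources used here, so that overlapping and antisense genes are uncertain. Counts of 24659 genes were taken as deposited, 0 columns of per-sample values were left unused, and 99.87% of genes were matched to GENCODE annotation of the same build for position, exon length and GC content.

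The 4 preleukaemic libraries were compared with the 3 leukaemic libraries in edgeR 4.0.16 (R 4.3.3) with TMM scaling, filterByExpr and the quasi-likelihood F test, and p-values were adjusted by Benjamini-Hochberg over 12970 genes. A gene could pass filterByExpr, the filter on low counts, through the libraries of a single group. A gene was called at an adjusted p under 0.05 and at least 1.5-fold. Log2 fold changes are leukaemic minus preleukaemic, printed with an SE equal to the absolute log2 fold change divided by the square root of F. The tool of the study's own test is not given in the sources used here. As replicates are single mice, p-values measure the spread between mice, and libraries of 37726753 to 40514205 counts left counting error small beside it for all but the lowest genes.

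Alternatives were DESeq2 1.42.0, voom with sample quality weights (limma 3.58.1), other filters and scaling, a test against 1.5-fold, robust empirical Bayes and leaving out each mouse. Offsets by exon length and GC (loess, span 0.5), DESeq2 without each mouse and ratios to the mean of the other 6 libraries were added after seeing the data. The main edgeR fit, DESeq2 and voom were tested on simulated counts, and the other settings were not. Principal components used log2 CPM (prior count 2) and chromosome ratios log2(CPM + 0.5). The exact permutation test was run in scipy 1.17.1 and figures in matplotlib 3.10.9.

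Gene lists and members were chosen with earlier results of these data known. Named genes were the 12 of smallest p in each direction with groups that did not overlap, at least 1.5-fold and 10 or more counts on average in the group with more, up to 4 genes of smallest p and the 2 of highest CPM per kilobase in each list, label and model checks, and up to 3 genes highest above and 3 lowest below all other libraries in each mouse with at least 10 CPM on the high side. Ccne2, Gab2, Isg15, Klf1, Maml1, Mcm4, Mcm6, Slc4a1, Tal1, Hbb-bh1, Cd34, Cd3e, Lyz2, Mpo and Pax5 were chosen after their values were seen. A few genes that these rules name are not reported here. Fold changes are printed for genes with an unadjusted p under 0.05 and left out for Mcpt8, Thbs1, Ighm, Tnfrsf10b, Ctsc and Gucy2g, which had a mean of at most 3 counts in 1 group. Another deposited table with the same counts was not used. Promoter sequences are those of RefSeq.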

Additional observations from a re-analysis of the deposited data

Results flagged for a closer look

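In the 4 preleukaemic libraries, the gap of the highest or lowest mouse to its nearest neighbour was divided by the range of the group, for 157 genes named in the text on the log2(CPM + 1) scale, for 49 gene lists and for 20 chromosomes. The quotient passed Dixon's 95% value of 0.83 in 36 of these 226, that is 26 genes, 8 lists and 2 chromosomes. Chance flags about 1 in 20 groups, genes named because 1 library stood apart had to pass, and the 3 leukaemic libraries are too few to be examined.

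Mouse preleukemic_633 stood apart from its group in 10 genes. It was high in Igf2bp1 (0.979), Plod2 (1), Crim1 (0.993), Hbb-bh1 (0.990), Cd34 (0.955), Nras (0.889), Gabpa (0.849) and Ncl (0.842), and low in Rrm2b (0.905). Pax5 (1) had at most 2 counts there and 0 in the other preleukaemic libraries, so that its quotient rests on single reads. The same mouse was low in MHC class I presentation (0.889) and on chromosome 8 (0.852) and high in oncofetal and imprinted genes (0.873).

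Mouse preleukemic_812 was high in Pim1 (0.948), Serpinb2 (0.959), Xist (0.922), Mcpt8 (1, from 4 counts against 0) and Ctsc (0.839), as well as in antioxidant defence (0.887). It was low in Ank1 (0.875), Cldn13 (0.857), Insig1 (0.893) and Mdm4 (0.858). For Ank1 and Mdm4 this placed it at the level of the lower leukaemic mice.

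Mouse preleukemic_837 was high in Zfp979 (0.918), Tbx4 (0.840), Myh9 (0.853) and Cd3e (1, from at most 5 counts) and low in Pdk1 (0.833). Among lists it was high in erythroid transcription factors (0.858) and in p53 and its targets (1) and low in nuclear-encoded oxidative phosphorylation (0.863) and heat shock proteins (0.942). The list deviations behind the p53 value were 0.00 in the other 3 mice and 0.09 in preleukemic_837, a small difference. Mouse preleukemic_663 was high in Ccnd1 (0.859), Slit1 (0.990) and HOX genes with PBX and MEIS (0.885) and low on chromosome 9 (0.905).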

How the results depend on the processing

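edgeR's count of 0 called genes was also 0 with DESeq2's size factors, without a filter, with a filter of 1 CPM in 3 libraries, with robust empirical Bayes, in the test against 1.5-fold, with no fold threshold and after the removal of the exon-length trend or of exon-length and GC trends. It was 1 with voom (Tceal8), 0 to 1 when 1 mouse was left out (Ctsc without leukemic_601, Tceal8 without leukemic_921), and 470 in DESeq2's Wald test, whose calls ran from 155 without leukemic_606 to 1618 without preleukemic_812, with 202, 288, 167, 265 and 343 without preleukemic_633, preleukemic_663, preleukemic_837, leukemic_601 and leukemic_921. The count of 2587 genes at an unadjusted p under 0.05 ran from 1642 without leukemic_606 to 3177 without preleukemic_812, from 673 to 1494 for higher and from 969 to 1683 for lower genes, and from 1934 to 3088 over the other alternatives. Lower genes numbered 944 without the length trend and 864 without length and GC trends, against 1473. The first principal component held 24.9% of the variance, 24% over all genes and 25.3% with a prior count of 0.5. List medians below 0 numbered 32 to 41 of 49. Of the list medians recomputed under alternatives, 125 moved by more than the spread between mice, up to 18 in 1 setting (length trend removed), and 610 did not. Among the fold changes of 107 named genes under alternatives, 59 passed an adjusted p of 0.05 (57 of them in DESeq2) and 0 changed sign. These genes were printed for an unadjusted p under 0.05 in the same libraries, so that a change of sign was unlikely from the start. Beyond genes given with their results, an unadjusted p under 0.05 was lost by Hras without preleukemic_663, preleukemic_812, preleukemic_837, leukemic_601, leukemic_606 or leukemic_921, by Uhrf1 without preleukemic_633, preleukemic_663, preleukemic_837, leukemic_606 or leukemic_921, by Tyrobp without preleukemic_812, leukemic_601, leukemic_606 or leukemic_921, by Emilin2 without preleukemic_837, leukemic_606 or leukemic_921, by Gabpa and Jarid2 without leukemic_601 or leukemic_606 and by Slamf1 without leukemic_606. The cause of these changes was not tested. No paired analysis was possible because the groups share no replicate numbers. The 3 leukaemic mice set the precision, and the length and chromosome trends of single mice could not be parted from stage. Depth limited only genes near 3 counts, such as Mcpt8, Ighm and Thbs1.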

Other observations

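Of the 12 higher genes of smallest p named above, Rps27, Selenof and Pmvk lay on chromosome 3. Chromosome 7 (Glrx3, Dctpp1 and Ctsc) and chromosome 11 (Tmem256, Tk1 and Coa3) carried as many. The median of chromosome 3 was 0.69 in leukemic_606, 0.23 in leukemic_601 and −0.27 in leukemic_921. Selenof, a selenoprotein gene of the endoplasmic reticulum on chromosome 3, was at 219.6, 326, 355 and 227 CPM in the preleukaemic and 743, 1275 and 685 CPM in the leukaemic libraries. Pmvk, also on chromosome 3, was at 99.9, 104, 154 and 116 CPM against 255, 315 and 234 CPM. Like Rps27, Rpl34, Elovl6 and Cpa3 on the same chromosome, both were highest in leukemic_606. In that mouse 87.7% of 432 genes of chromosome 3 lay above the mean of the other 6 libraries. The chromosome 3 median of leukemic_921 was the lowest of the 7 libraries. Its values of Selenof and Pmvk had to exceed every preleukaemic value, since both genes were named for groups that did not overlap.

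Tk1, the thymidine kinase of the salvage pathway, was at 54.0, 93.4, 74.0 and 69.5 CPM against 151, 211 and 175 CPM. Dctpp1, which degrades modified dCTP, was at 58.9, 80.8, 76.998 and 53.6 CPM against 137, 212 and 164 CPM. Gucy2g, a membrane guanylate cyclase gene, was at 0.0504, 0.04998, 0.0267 and 0.0742 CPM against 0.436, 1.07 and 1.53 CPM, and Stard10 at 10.7, 39.4, 9.54 and 15.4 CPM against 1.33, 1.22 and 1.504 CPM. Pabpc1, whose protein coats poly(A) tails, was at 2080.4, 1665, 1383 and 2024 CPM against 696, 677 and 829.5 CPM. All genes of this paragraph were named for groups that did not overlap, so that their separation was set by that choice.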
